A study of Mus musculus with 24 samples.

Results

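The genes described here are the longest transcription units of the mouse genome: rows with a gene symbol in the deposited full tables whose end minus start was 200 kb or more. The rule left 964 rows of 24357 named rows, carrying 940 symbols, because 47 rows share a symbol with another row (a second row of a symbol is written with # and its number). They made up 3.96% of the named rows but 38.7% of their summed length, 395.5 Mb. Their median length was 320.4 kb, 198 spanned 500 kb or more, 46 spanned 1 Mb or more, and the longest spanned 2271 kb. A further 39 rows of that length had no symbol and were left out.

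Excision repair was read in kidney and liver of wild type C57BL/6 mice, per the labels females of 6 months kept on a 12:12 light and dark cycle, with no untreated animals among the libraries. All animals had received cisplatin at 10 mg per kg into the peritoneum 2 h before sacrifice at Zeitgeber time (ZT) 0, 4, 8, 12, 16 or 20. Each of the 6 times had 2 replicates in each tissue, giving 12 libraries a tissue and 24 in all. The labels do not say that the replicates were separate animals, so p-values cover no more than the variation among the libraries at hand, part of which may be technical.

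XR-seq reads the small DNA pieces released when damage is excised, here caught together with the repair factor TFIIH and then with an antibody to the adduct. Nucleotide excision repair, which removes cisplatin adducts, has a global branch, which surveys the whole genome, and a transcription-coupled branch, which starts where RNA polymerase II stalls at a lesion in the strand it reads. Oligomers from the transcribed strand (TS) above those from the non-transcribed strand (NTS) are therefore the usual mark of transcription-coupled repair, and a long gene offers the polymerase many lesions before it reaches the end. Many long genes encode adhesion and channel proteins of neurons, which kidney and liver hardly transcribe.

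The label of the rows was checked against RefSeq first. For 37 rows the RefSeq gene of that symbol spans under 50% of the row, as for the miRNA Mir8115 and the short RNA Bc1, and 3 symbols had no RefSeq entry, so 40 rows are not genes of that length by RefSeq and 924 are. The pooled values, the length classes and the counts of calls are given with and without those 40 rows. Of the 964 rows, 232 overlap another row on the opposite strand and 198 one on the same strand, where reads cannot be assigned with certainty, and 597 overlap none. By RefSeq class, 904 were protein coding, 30 long non-coding RNAs, 22 miRNAs and 5 pseudogenes. Just inside the threshold lay Plcxd3 (log2 TS/NTS 1.57 in kidney and 0.67 in liver), Pcbp3 (3.24 and 2.95) and Gm6602 (-0.13 and -0.10). Just outside lay Atp9b (4.43 and 5.19), Morc1 (0.03 and 0.11) and Clec16a (4.12 and 4.71).

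The 250 bases before the start of 3 members on which later results turn are printed 5′ to 3′ on the gene's strand from RefSeq (GRCm38.p6), with hexamers searched on both strands in capitals. These are CACGTG, the core of the E-box that clock factors bind, and AGGTCA, a core motif of nuclear receptors. Runx1 had a TS wave in kidney that peaked in the light phase, Caln1 had one of the largest TS waves in liver, and Msi2 was among the 3 members with the most TS reads in kidney. The Runx1 stretch is chr16:92826075-92826324 (- strand), that of Caln1 chr5:130369208-130369457 (+ strand) and that of Msi2 chr11:88718230-88718479 (- strand).
Runx1: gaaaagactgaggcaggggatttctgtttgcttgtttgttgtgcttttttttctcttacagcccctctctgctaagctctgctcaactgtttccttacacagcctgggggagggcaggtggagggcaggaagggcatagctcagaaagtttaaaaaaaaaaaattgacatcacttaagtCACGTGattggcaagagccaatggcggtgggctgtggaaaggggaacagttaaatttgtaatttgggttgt
Caln1: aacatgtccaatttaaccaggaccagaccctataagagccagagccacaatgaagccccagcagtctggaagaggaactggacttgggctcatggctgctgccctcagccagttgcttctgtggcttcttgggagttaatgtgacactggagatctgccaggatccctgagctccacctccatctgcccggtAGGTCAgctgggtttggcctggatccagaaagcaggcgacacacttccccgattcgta
Msi2: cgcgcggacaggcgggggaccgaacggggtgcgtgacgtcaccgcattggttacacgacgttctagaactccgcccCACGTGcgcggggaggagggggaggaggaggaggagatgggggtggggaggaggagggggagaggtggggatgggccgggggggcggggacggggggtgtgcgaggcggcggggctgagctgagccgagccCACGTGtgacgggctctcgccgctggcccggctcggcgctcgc
In Runx1 the CACGTG begins 71 bases before the start, in Msi2 at 174 and 43 bases, and in Caln1 the AGGTCA begins 58 bases before it. Of 32851 promoter windows of 300 bases in the RefSeq table, 7.15% held CACGTG and 16.3% held AGGTCA on either strand. The 3 members were picked among named members whose stretch held either hexamer, so the matches are there by selection. A match is a description of the letters only. The table held a matching window for 659 members (68.4%), too few to compare members with other genes, so that comparison is void.

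Library totals ran from 8718055 to 33716763 reads, and every member had TS and NTS reads in both tissues. Reads were spread over many members: the 100 with the most held 38.2% of long-gene TS reads in kidney and 43.5% in liver. The tissue labels held. Summed TS density of 6 kidney markers was 5.15 to 6.38 reads per kb of row scaled to the library total (RPKM) in kidney and 0.301 to 0.656 in liver, and that of 6 liver markers 8.09 to 13.2 in liver and 1.82 to 2.55 in kidney, with none at 0. One library stood apart: liver ZT0 replicate 1 correlated with the other liver libraries at 0.947 to 0.972, against 0.967 to 0.994 among the others. It had the lowest TS density of Alb (0.807 RPKM) and the highest of the immune genes Ptprc (0.147) and Csf1r (0.403). Replicates of ZT0 also differed most in both tissues, with a chi-square per degree of freedom of 13.7 in kidney and 24.3 in liver against 2.79 to 5.45 at the other times.

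Pooled over all members, long genes carried less repair per base than other genes on both strands. The TS density was 0.217 ± 0.0189 RPKM in kidney and 0.232 ± 0.0151 in liver (SD, n = 12), against 0.977 and 1.00 RPKM for all other named rows. On the NTS the density was 0.05002 ± 0.0040 RPKM in kidney and 0.0400 ± 0.0023 in liver, against 0.152 and 0.139 elsewhere. The TS gap was the wider, so the strand ratio of long genes lay lower. The pooled TS/NTS ratio was 4.39 ± 0.667 in kidney (range 3.38 to 5.50) and 5.82 ± 0.634 in liver (4.87 to 7.20), against 6.49 and 7.22 in the other rows. In 12 of 12 libraries of each tissue the ratio of long genes was below that of the others. The size of this pooled gap depended on the 40 rows whose RefSeq gene is short or unmatched. On the log2 scale long minus other genes was -0.57 in kidney and -0.32 in liver, and without those rows -0.32 and -0.01, so in liver little of the pooled gap was left. The other named rows were not screened for such mismatches. Row by row the medians still differed without the 40 rows. The median log2 TS/NTS of the remaining members was 1.80 in kidney and 1.57 in liver, against 2.19 and 2.24 over all rows tested. The read filter kept all 964 members but 20243 of 24357 named rows in kidney and 20271 in liver. Of 10127 rows under 10 kb it kept 6173 and 6171. Weakly covered short rows are thus missing from the medians over all rows, and the part of the filter in this gap was not tested. Without the 40 rows the TS density was 0.216 ± 0.0198 and 0.232 ± 0.0156 RPKM and the NTS density 0.0419 ± 0.0042 and 0.0324 ± 0.0024 RPKM.

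Among the members the ratio fell with length. From 200 to 300 kb (431 rows) the pooled TS/NTS ratio was 6.40 in kidney and 8.82 in liver, higher than in rows under 10 kb (3.45 and 3.40) and below the peak at 50 to 100 kb (8.33 and 9.84). It was 3.95 and 5.14 from 300 to 500 kb, 2.55 and 3.42 from 500 to 1000 kb, and 2.74 and 2.63 at 1 Mb or more. The members of 200 to 300 kb lay close to genes of 100 to 200 kb (7.21 and 9.37), while those of 1 Mb or more had the lowest liver ratio and those of 500 to 1000 kb the lowest kidney ratio. Without the 40 mismatched rows, 11, 24 and 5 of them in the first 3 of these classes, the ratios were 6.70 and 9.26 at 200 to 300 kb, 4.80 and 6.66 at 300 to 500 kb and 3.74 and 5.29 at 500 to 1000 kb. At 1 Mb or more no row was mismatched, and both tissues were then lowest there. The TS density followed, at 0.397 RPKM in kidney for 200 to 300 kb and 0.0569 RPKM at 1 Mb or more.

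**Figure D1:**
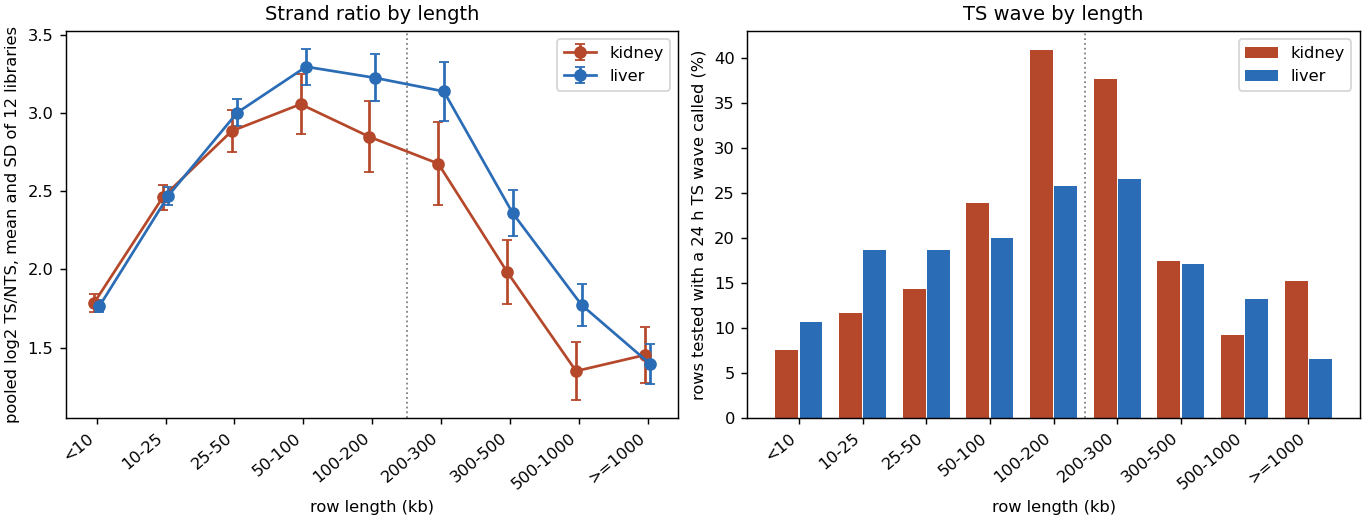
Left, the pooled log2 TS/NTS ratio (mean and SD of 12 libraries) by row length in kb for kidney and liver; right, the percentage of tested rows with a 24 h TS wave called in each length class. The dotted line marks 200 kb. The ratio is highest at 50 to 100 kb and falls beyond 300 kb, and waves are called most often at 100 to 300 kb in both tissues (40.9% at 100 to 200 kb in kidney).

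Row by row, most long genes were repaired more on the transcribed strand. With edgeR's quasi-likelihood test over all named rows (Benjamini-Hochberg adjusted p under 0.05), TS exceeded NTS in 794 of 964 members in kidney and NTS exceeded TS in 52. All rows tested gave 75.6% higher and 11.4% lower, 86.9% in all. In liver 737 were higher and 71 lower, against 73.4% and 11.8% of all rows (85.1% in all). Among the 924 rows that match RefSeq, 776 were higher and 38 lower in kidney and 716 and 62 in liver. Sizes were below those of the typical row that passed the read filter. The median log2 TS/NTS was 1.67 in kidney and 1.35 in liver, against 2.19 and 2.24 over all rows tested. These ratios use 1 library size for both strands. When each strand is scaled on its own, by relative log expression (RLE) factors or by column totals, a ratio is read against the typical row by construction, and the kidney split became 337 higher and 575 lower or 288 and 618. The liver split became 327 and 604 or 291 and 642.

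Both tissues largely ranked the members alike. TS was higher in both tissues in 701 members, lower in both in 35, and of opposite direction in 32 (25 higher in kidney and lower in liver, 7 the reverse). Across the 964 members, which share libraries and annotation, Spearman's rho of the ratios was 0.87. Neither the split nor rho was worked out over all rows, so this likeness is not shown to be particular to long genes. Members with the NTS higher were weakly covered on the TS, with a median density of 0.0315 RPKM in kidney against 0.181 in the TS-higher members. Of the 52 in kidney, 26 overlap a row of the opposite strand (50%, against 23.4% of TS-higher members) and 14 are among the 40 rows not matched by RefSeq. In liver 32 of 71 overlap (45.1%).

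**Figure D2:**
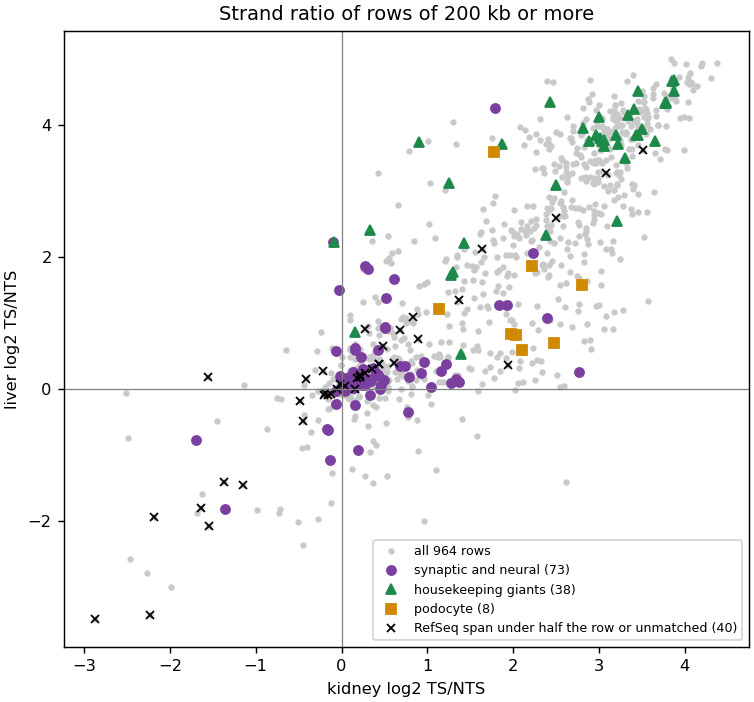
Each point is 1 of 964 rows of 200 kb or more, with its log2 TS/NTS ratio in kidney (x) and liver (y). Purple circles are 73 rows of synaptic and neural genes, green triangles 38 of housekeeping giants and orange squares 8 of podocyte genes. Crosses are the 40 rows with a short or no RefSeq match. Housekeeping giants lie mostly at the upper right and synaptic genes near 0 on both axes.

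The ratio ranks below take members that overlap no row on the opposite strand, with a mean of at least 20 NTS reads per library. Ap3b1, a subunit of the AP-3 vesicle adaptor complex (chr13:94358960-94566316), had a TS density of 0.950 to 1.25 RPKM in kidney (median 1.09) and an NTS density of 0.0396 to 0.0662 RPKM. In liver its TS lay at 1.29 to 1.504 RPKM (median 1.41) and its NTS at 0.0362 to 0.0530 RPKM. The strands did not overlap in any library, and liver TS lay above kidney TS throughout. Its log2 TS/NTS was 4.38 ± 0.09 (SE) in kidney and 4.94 ± 0.07 in liver, with adjusted p of 1.68e-23 and 1.72e-28 by edgeR. Close to it in kidney came Faf1 (4.30), a ubiquitin-binding cofactor of p97, Phkb (4.20), a subunit of glycogen phosphorylase kinase, and Map2k5 (4.19), a kinase of the ERK5 pathway. In liver the highest ratio was that of Chchd3 (5.001 ± 0.06), which shapes mitochondrial cristae, followed by Ap3b1, Phkb (4.94), the histone deacetylase Hdac4 (4.94) and Slc10a7 (4.93). Ap3b1, Phkb, Map2k5 and Mycbp2 were among the 8 highest in both tissues.

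At the other end the NTS was the better repaired strand. Megf11, a receptor that spaces retinal neurons (chr9:64385626-64709205), had a kidney TS density of 0.0461 to 0.0829 RPKM (median 0.0586) against an NTS density of 0.307 to 0.367 RPKM (median 0.335). In liver the TS lay at 0.0489 to 0.0689 RPKM and the NTS at 0.298 to 0.359 RPKM. All 24 libraries had the NTS above the TS, with no overlap. The log2 TS/NTS was -2.46 ± 0.08 and -2.58 ± 0.06, and no row of the tables overlaps it on the opposite strand. Dnah9, an axonemal dynein heavy chain of motile cilia, was at -1.99 ± 0.07 in kidney and -3.01 ± 0.07 in liver. Other low ratios were those of the potassium channel Kcnh7 (-1.70) and the kinase Camk4 (-1.69) in kidney, and of the adhesion molecule Kirrel3 (-2.37) and of Nhs (-2.00) in liver. Nhs, an actin regulator mutated in Nance-Horan syndrome, changed sides: its ratio was 0.96 ± 0.07 in kidney, where its TS density was 0.253 to 0.371 RPKM against 0.0264 to 0.0422 in liver. Its NTS density did not pass the test between tissues (adjusted p = 0.977, edgeR).

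The 3 longest members are close in length and differed in ratio. Ptprd, a receptor tyrosine phosphatase (2271 kb), had a TS density of 0.107 to 0.137 RPKM in kidney (median 0.123) and 0.131 to 0.193 in liver (median 0.174). Its NTS lay at 0.0215 to 0.0293 and 0.0127 to 0.0203 RPKM, below the TS in every library, and its log2 ratio was 2.26 ± 0.08 and 3.33 ± 0.06. Dmd, which encodes dystrophin (2256 kb on X) and overlaps a row of the opposite strand, reached 1.33 ± 0.06 and 1.84 ± 0.06. Cntnap2, a neurexin-like adhesion molecule of axons (2241 kb), had medians of 0.0134 RPKM on the TS and 0.0128 on the NTS in kidney, and 0.0106 and 0.0102 in liver. Its strands overlapped in range and the ratio did not pass the test in either tissue (log2 0.06 ± 0.05, adjusted p = 0.264, and 0.04 ± 0.05, adjusted p = 0.531, edgeR). With each strand scaled on its own, Dmd and Cntnap2 fell below 0 in both tissues and Ptprd below 0 in kidney.

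Members with the most TS reads were not those with the highest ratio. The row named Bc1, one of the 40 mismatched rows, led in both tissues at 1.31 ± 0.0766 and 1.27 ± 0.0734 RPKM (SD, n = 12), with the NTS higher than the TS in 12 of 12 libraries of each tissue. After it came Tns1, a focal adhesion protein, and Msi2, an RNA-binding translational regulator, in kidney, and Zmiz1, a transcriptional coregulator, and Ctif, a translation factor, in liver. Tns1 had a TS density of 2.79 to 3.54 RPKM in kidney and 2.45 to 3.06 in liver. Its NTS differed more, at 0.470 to 0.769 RPKM in kidney and 0.199 to 0.338 in liver, with no overlap between the tissues. Msi2, which overlaps rows on both strands, lay at 1.38 to 1.88 RPKM on the TS in kidney (median 1.54) and 0.769 to 1.28 in liver (median 1.01), and its log2 TS/NTS was 2.63 ± 0.09 and 4.13 ± 0.09. Kidney and liver Msi2 did not overlap on the TS, and the tissue with the higher density had the lower ratio. Its TS wave was called in liver (0.26, peak 20.8 h, adjusted p = 0.0128, edgeR), and in kidney (0.15) only with the replicate block (adjusted p = 0.0853 without it and 0.0067 with it).

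The gene lists differed widely in strand ratio. Over all rows 75.6% were TS-higher and 11.4% TS-lower in kidney, and 73.4% and 11.8% in liver. Of 73 synaptic and neural rows, 50 were TS-higher and 4 TS-lower in kidney and 39 and 9 in liver. Their medians were 0.25 and 0.16, against 2.19 and 2.24 over all rows tested. By contrast 37 of 38 housekeeping giants (vesicle tethers, autophagy and chromatin factors) were TS-higher in kidney and 38 in liver, at medians of 3.04 and 3.77. Transcription regulators were TS-higher in 32 of 32 in both tissues (medians 2.73 and 3.51), and hepatocyte and metabolic genes in 17 of 17 (2.92 and 3.77). Signalling and polarity genes were so in 42 and 43 of 44 (2.65 and 2.73), and kidney epithelial genes in 22 and 17 of 23 (2.26 and 2.02), with 2 TS-lower in liver. The 25 rows of genes at common fragile sites, such as Wwox, Fhit, Dmd and Magi2, were TS-higher in 22 in each tissue, with medians of 1.87 and 1.57. Endothelial and mesenchymal genes were TS-higher in 20 and 21 of 23 (2.01 and 1.57), immune genes in 11 and 12 of 13 (1.89 and 2.22) and podocyte genes in 8 of 8 (2.07 and 1.02). The lists share members. Here and below their counts are of rows, so a gene with more than 1 row, such as Magi2, Rad51b, Trpm3 or Cntn4, counts more than once.

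The share of repair that fell in long genes varied over the day. Of the TS reads in named rows, the members took 12.3% ± 0.851 in kidney and 12.7% ± 0.680 in liver (SD, n = 12). By time the kidney means were 12.9, 11.7, 11.3, 12.3, 12.8 and 12.6% from ZT0 to ZT20, and the liver means 13.0, 12.2, 11.9, 12.8, 13.2 and 13.3%. Both tissues were lowest at ZT8 and high at ZT16 and ZT20. The highest libraries were replicate 1 of ZT0 in each tissue (14.1% and 13.8%), against 11.8% and 12.2% in their replicate 2. A 24 h cosine gave an amplitude of 0.737 ± 0.295 points (SE) with a peak at 19.2 h in kidney, and 0.694 ± 0.202 points at 18.8 h in liver. On the NTS the share was 17.2% ± 0.209 in kidney and 15.4% ± 0.579 in liver, with an amplitude of 0.0821 ± 0.0902 points in kidney. The liver NTS amplitude was 0.515 ± 0.197 points, with its highest value (17.0%) in liver ZT0 replicate 1.

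The pooled strand ratio of long genes had a fitted wave of about the same phase. Its log2 amplitude was 0.21 ± 0.07 in kidney (peak 19.6 h) and 0.16 ± 0.05 in liver (18.0 h), against 0.12 (20.0 h) and 0.09 (19.5 h) for the other rows. This size was not particular to the members: rows of 100 to 200 kb had 0.23 ± 0.07 (19.6 h) and 0.16 ± 0.04 (19.0 h). Rows of 50 to 100 kb had 0.18 and 0.12, and members of 1 Mb or more 0.15 and 0.12. The difference of long minus other rows had an amplitude of 0.09 ± 0.04 in kidney and 0.08 ± 0.02 in liver. In kidney this difference was smaller at some settings: 0.05 ± 0.04 for rows of 300 kb or more, and within its error at 500 kb or more (0.04 ± 0.04) and as a median over rows (0.03 ± 0.05). It was 0.10 ± 0.04 without overlapping rows and 0.12 ± 0.05 without the 40 mismatched rows. All marker sums in kidney had fitted peaks in the light phase, those of its own cells included (0.10, 9.2 h). The log2 TS amplitude was 0.31 for immune markers (peak 7.4 h), 0.34 for mesenchymal (7.6 h), 0.30 for podocyte (8.3 h) 0.23 for endothelial (8.3 h) and 0.20 for neural (7.3 h), with no marker at 0. Their summed TS densities in kidney ran from 1.39 to 2.71, 0.671 to 1.46, 0.686 to 1.19, 1.36 to 2.21 and 0.187 to 0.369 RPKM. The liver sums were 0.675 to 1.21, 0.746 to 1.21, 0.4575 to 1.22, 1.18 to 3.645 and 0.2475 to 0.366 RPKM. All but the immune sums overlapped between tissues, so the podocyte sum did not set kidney apart from liver. In liver the amplitudes were 0.21 (9.8 h), 0.08 (10.1 h), 0.07 (21.8 h), 0.04 (22.0 h) and 0.18 (9.9 h), and that of the liver markers 0.12 (9.0 h). The part of cell type in the wave was not tested, and fewer cells of a type cannot be told apart from less repair per cell in bulk tissue. In TS share very short genes ran against the long ones. Rows under 10 kb had a log2 TS share amplitude of 0.13 with a peak at 6.6 h in kidney and 0.08 at 7.5 h in liver. Rows of 200 to 300 kb had 0.11 at 19.1 h and 0.09 at 18.6 h. Shares are parts of a whole, so a rise in some classes lowers others by construction. The log2 TS/NTS ratio of rows under 10 kb had amplitudes of 0.04 ± 0.02 in kidney (2.8 h) and 0.01 ± 0.02 in liver (23.5 h).

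**Figure D3:**
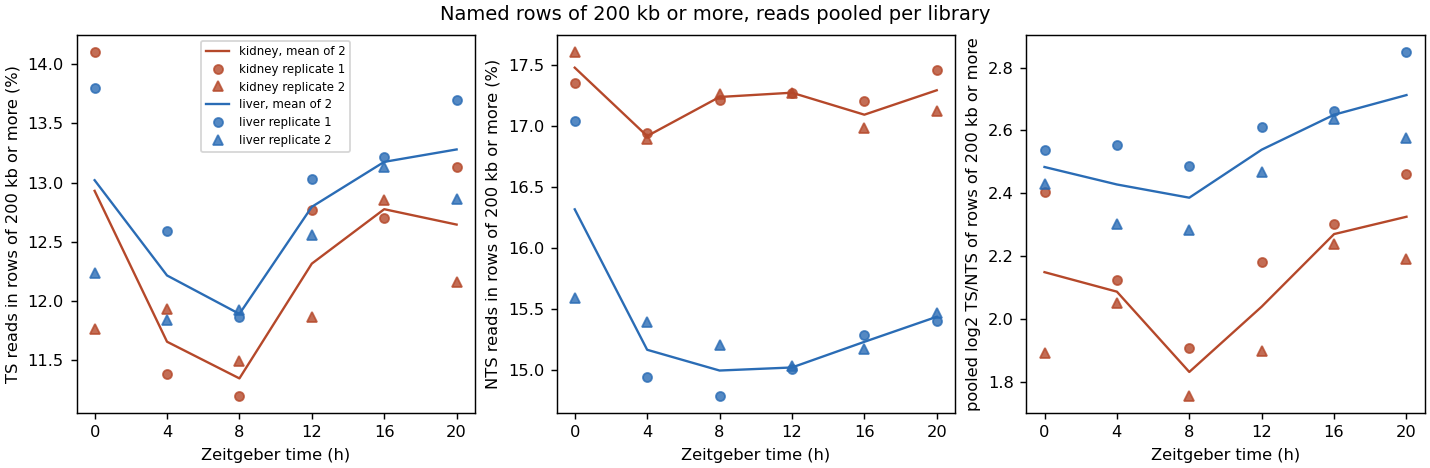
Share of TS reads (left) and NTS reads (middle) in rows of 200 kb or more, in percent, and their pooled log2 TS/NTS ratio (right), against Zeitgeber time in h. Points are libraries (circles replicate 1, triangles replicate 2) and lines the means of 2. The TS share and the ratio are lowest at ZT8 in both tissues, the kidney NTS share stays between 16.9 and 17.6%, and the ratio is higher in liver than in kidney at all 6 times.

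Single members showed the same phase. A 24 h TS wave was called in 241 of the 963 members tested in kidney (25%, against 15.5% of all rows tested), of which 230 peaked between 16 and 24 h (10.7% of all rows did), 7 between 4 and 12 h (4.44%) and 4 elsewhere (0.334%). In liver 194 of 963 were called (20.1%, against 17.3%), 172 of them at 16 to 24 h (10% of all rows), 4 at 4 to 12 h (6.47%) and 18 elsewhere (0.841%). Neither the excess nor the phase was particular to the members. Of 1394 rows of 100 to 200 kb, 570 were called in kidney (40.9%), 553 of them at 16 to 24 h. In liver 360 of these rows were called (25.8%), 323 of them at 16 to 24 h. Kidney replicates pair by number, and with the replicate as a block 392 kidney members were called. No share of all rows was worked out with the block. The median amplitude of called members was 0.23 log2 units in kidney and 0.22 in liver, a fold of 1.37 and 1.36 from trough to peak. Leaving out kidney ZT0 replicate 2 raised the kidney count to 378. It was 126 and 91 without replicates 1 and 2 of ZT8, 154 without ZT16 replicate 1 and 122 without ZT20 replicate 1. Without liver ZT0 replicate 1 the liver count was 300. Among rows that match RefSeq, 239 of 924 were called in kidney and 186 in liver.

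The split of peak times moved with the scaling. When each library's trend of counts with length was removed, 173 kidney members were called, 129 at 16 to 24 h and 41 at 4 to 12 h, and 79 liver members, 46 and 12. Scaling by column totals gave 177 and 41 in kidney and 142 and 20 in liver. Neither scaling has a share of all rows called beside it. By length, the kidney share called was 37.6% at 200 to 300 kb, 17.4% at 300 to 500 kb, 9.21% at 500 to 1000 kb and 15.2% at 1 Mb or more. Both tissues called 112 members, 46.5% of the kidney calls and 57.7% of the liver calls, and 107 of these peaked within 4 h of each other. This overlap was not worked out over all rows, so it is not shown to be particular to long genes.

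**Figure D4:**
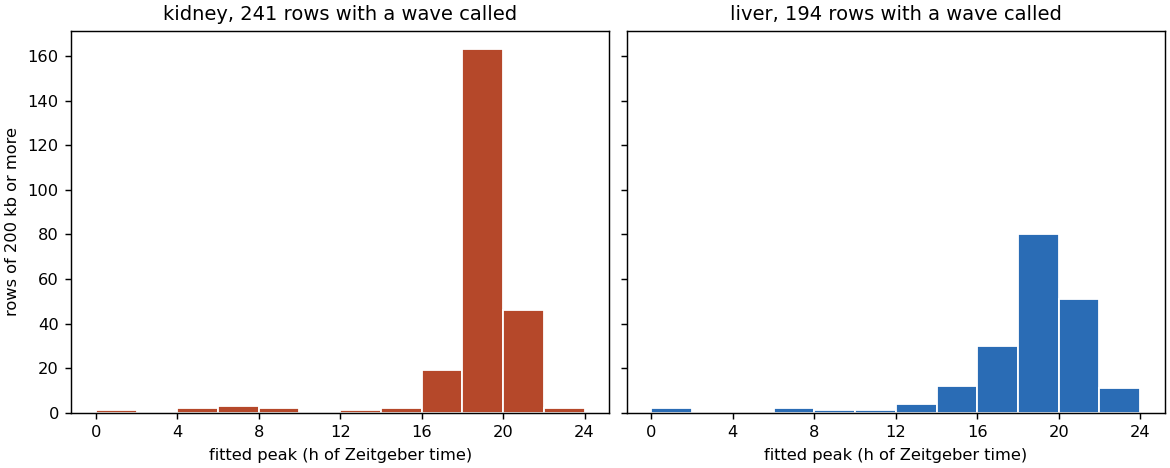
Number of rows of 200 kb or more by fitted peak time of the TS wave, in 2 h bins of Zeitgeber time, for the 241 rows called in kidney and the 194 in liver. In both tissues most peaks fall between 16 and 24 h (230 and 172 rows).

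In kidney the largest TS wave among called members with at least 20 TS reads per library was that of Acaca, acetyl-CoA carboxylase, the committing enzyme of fatty acid synthesis (chr11:84195438-84401651). Its TS density was 0.246 and 0.273 RPKM at ZT4, 0.266 and 0.246 at ZT8, 0.396 and 0.321 at ZT12, 0.431 and 0.420 at ZT16, 0.451 and 0.399 at ZT20, and 0.406 and 0.279 at ZT0 (replicates 1 and 2). Values of ZT4 and ZT8 lay below those of ZT12 to ZT20 in both replicates, and the ZT0 replicates stood apart from each other. The wave had a log2 amplitude of 0.44 ± 0.06, peaked at 17.9 h (adjusted p = 0.000997, edgeR) and spanned a fold of 1.84. Liver Acaca lay 3.22-fold higher with no overlap, and its amplitude of 0.08 did not pass the test (adjusted p = 0.403).

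Next came Ksr2, a scaffold of the Raf-MEK-ERK cascade (0.43 ± 0.07, peak 20.1 h, adjusted p = 0.00355), which lay at 0.217 to 0.454 RPKM, lowest at ZT8. The wave of Mgmt, which reverses methylguanine damage, was 0.41 ± 0.09 and peaked at 22.3 h. One library carried much of it: kidney ZT0 replicate 1 was at 0.312 RPKM, the others at 0.127 to 0.223, and without it the amplitude was 0.26 (adjusted p = 0.00713). The giant sarcomere gene Ttn (0.37 ± 0.07, peak 20.8 h), the protease gene Pappa (0.37 ± 0.04, 18.5 h), Mob3b (0.38), Slc25a21 (0.38), Nckap5 (0.38) and Trabd2b (0.37) were also among the largest. The call of Slc25a21 was lost without ZT8 replicate 1 or 2, ZT12 replicate 2, ZT16 replicate 1 or ZT20 replicate 1 (adjusted p up to 0.112), and that of Trabd2b without ZT8 replicate 2 (0.0512).

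The 7 kidney members with peaks between 4 and 12 h were Runx1, Wdfy4, Dnah6, Spon1, Csmd1, Grik4 and Hecw2. Runx1, a blood cell transcription factor, had kidney means of 0.142, 0.173, 0.179, 0.139, 0.121 and 0.111 RPKM from ZT0 to ZT20, and its wave (0.32 ± 0.07) peaked at 6.0 h (adjusted p = 0.0162, edgeR). Its call was lost without kidney ZT4 replicate 2 or ZT8 replicate 2 (adjusted p up to 0.0712). Wdfy4, which dendritic cells use for cross-presentation, peaked at 5.2 h (0.27). Of the 13 rows on the immune list 2 were called in kidney, Runx1 and Dock8, and Dock8 peaked at 16 to 24 h. The kidney immune markers peaked at 7.4 h, and all other marker sums in kidney also peaked in the light phase. The part of immune cells in these waves was not tested. In liver the 4 members with peaks between 4 and 12 h were Esrrg, Fhit, Rapgef4 and Dlgap2. Runx1 did not pass in liver (0.17 ± 0.16, adjusted p = 0.761), and without liver ZT0 replicate 1 it did (0.43, adjusted p = 0.0157).

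The largest liver waves exceeded the largest kidney waves in fitted size. Zbtb7c, a zinc finger transcription factor, had liver TS densities of 0.133 and 0.131 RPKM at ZT8, 0.198 and 0.155 at ZT12, 0.376 and 0.362 at ZT16, 0.870 and 0.408 at ZT20, 0.596 and 0.290 at ZT0, and 0.466 and 0.262 at ZT4. ZT8 and ZT12 lay below all other times, and replicate 1 lay above replicate 2 at each time. The wave, of amplitude 1.06 ± 0.18, peaked at 21.5 h (adjusted p = 0.0045, edgeR) and spanned a fold of 4.33. In kidney it stayed between 0.281 and 0.367 RPKM.

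Arhgap24, a Rac GTPase activator, fell in liver from 0.425 RPKM (mean of 2) at ZT20 to 0.152 at ZT8, a wave of 0.79 ± 0.07 that peaked at 22.4 h (adjusted p = 7.61e-05, edgeR). Caln1, a calcium sensor (chr5:130369458-130840645), peaked earlier, at 14.7 h: its liver means were 0.150, 0.132, 0.178, 0.334, 0.303 and 0.226 RPKM from ZT0 to ZT20 (amplitude 0.70 ± 0.06). ZT12 and ZT16 lay above all other times in both replicates. Other large liver waves were those of Plppr1 (0.69, lost without liver ZT20 replicate 1, adjusted p = 0.0523), Srgap3 (0.66 ± 0.07, 20.6 h), the plasma membrane calcium pump Atp2b2 (0.62 ± 0.07, 21.3 h), Med12l, the muscarinic receptor Chrm3 (0.59 ± 0.09, 20.8 h), Kcnt2 and Dnah8. Srgap3 and Chrm3 were not called in kidney, while Atp2b2 was (0.36 ± 0.07, 20.5 h).

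Over all rows, TS waves were called in 15.5% in kidney and 17.3% in liver. Among the lists they were called in 15 of 38 housekeeping giants in kidney and 17 in liver, in 18 and 13 of 44 signalling genes, 10 and 13 of 32 transcription regulators, 6 and 7 of 17 hepatocyte genes and 8 and 5 of 23 kidney epithelial genes. Counts were 4 and 4 of 25 fragile site genes, near the share of all rows, 4 and 2 of 23 endothelial and mesenchymal genes, 2 and 1 of 13 immune genes, 0 and 1 of 8 podocyte genes, and 5 and 0 of 73 synaptic genes. For the counts of 0 by edgeR, 12 synaptic rows in liver and 1 podocyte row in kidney had an unadjusted p under 0.05, and DESeq2 called 5 and 0. Median amplitudes ran from 0.09 (synaptic) to 0.19 (housekeeping) in kidney and from 0.10 (podocyte) to 0.18 (immune) in liver, against 0.13 and 0.14 over all rows. Plcb1, a phospholipase C, was called in both tissues (0.28 and 0.34), in kidney not without ZT4 replicate 2, ZT8 replicate 1 or 2, ZT16 replicate 2 or ZT20 replicate 1 (adjusted p up to 0.0914). Plce1, another, was called in liver (0.35, adjusted p = 0.000829, edgeR) with 0.03 in kidney (adjusted p = 0.917); the difference between tissues did not pass (adjusted p = 0.0949).

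On the NTS waves were rare. In kidney 10 members were called (1.04%, against 2.14% of all rows) and in liver 23 (2.39%, against 3.87%). In kidney 9 peaked at 16 to 24 h (1.82% of all rows), 1 elsewhere (0.0704%) and 0 at 4 to 12 h (0.244%). In liver 10 peaked at 16 to 24 h (1.75%), 10 at 4 to 12 h (1.63%) and 3 elsewhere (0.491%). With the replicate block the kidney count was 45, with no share of all rows worked out. It ranged from 1 to 26 when single libraries were left out: 26, 19 and 16 without ZT0 replicate 2, ZT4 replicate 1 and ZT12 replicate 1, and 1 to 6 without ZT4 replicate 2, ZT12 replicate 2 or any library of ZT8, ZT16 or ZT20. In liver it was 35 and 47 without ZT0 replicates 1 and 2, 15 and 13 without ZT8 replicates 1 and 2, and 14 without ZT16 replicate 1. Dock8, Nr6a1, Spon1 and Vps13d were called on both strands in kidney, the TS calls of Dock8 and Vps13d not without ZT8 replicate 2, nor that of Dock8 without ZT16 replicate 1 or ZT20 replicate 1 (adjusted p up to 0.0691) and the NTS call of Nr6a1 not without ZT4 replicate 2 or ZT16 replicate 1 (up to 0.063). Vps13d, a lipid transfer protein of mitochondria, had an NTS amplitude of 0.36 and a TS amplitude of 0.18, with its TS at 1.17 to 1.57 RPKM. The liver NTS of Runx1 had an amplitude of 0.58.

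The count of members whose strand ratio changed with time depended on the model. Without the replicate block a wave of the ratio was called in 14 kidney members (1.45%, against 1.31% of all rows) and 84 liver members (8.71%, against 5.63%). Of these, 13 in kidney and 73 in liver peaked at 16 to 24 h (0.993% and 4.45% of all rows), 1 and 1 at 4 to 12 h (0.272% and 0.799%), and 0 and 10 elsewhere (0.0445% and 0.38%). Rows of 100 to 200 kb were called more often, at 3.87% in kidney and 11.2% in liver. With the replicate block, by which kidney libraries pair, the kidney count was 369 of 964. The share of all rows called with the block was not worked out, so this count is not shown to be particular to long genes. Without the block the kidney count was 332 without ZT0 replicate 2, 79 without ZT4 replicate 1, 22 without ZT12 replicate 1 and 5 or fewer without any other single library. It was 0 by edgeR without either ZT20 library, where 174 and 325 members had an unadjusted p under 0.05. In liver the lowest counts were 38, 51 and 55, on leaving out ZT8 replicate 2, ZT20 replicate 1 and ZT4 replicate 2. Of the kidney calls 12 were also called on the TS, whose reads they share, and of the liver calls 54 (64.3%). The largest were Ksr2, Plppr1, Slc39a11, Acaca and Mcph1 in kidney and Zbtb7c (0.99), D430041D05Rik, Arhgap24, Caln1 and Shank2 in liver. Each of the 5 kidney calls was lost without ZT4 replicate 2, ZT8 replicate 1 or any library of ZT16 or ZT20 (adjusted p up to 0.258), and that of Shank2 without liver ZT8 replicate 2 (0.0728).

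Between tissues, long genes split both ways, and by count more members lay higher in kidney. On the TS 488 of 963 members were higher in kidney (42.2% of all rows) and 326 higher in liver (31.7%), 814 in all (73.9% of all rows). On the NTS 397 were higher in kidney and 292 in liver (33.9% and 32.2% of all rows, 66.1% in all). Scaling by column totals gave 517 and 190 on the NTS, and removing the length trend 412 and 409 on the TS and 321 and 375 on the NTS. The strand ratio was higher in kidney in 284 and in liver in 387 (21.7% and 35.1% of all rows, 56.8% in all), 367 and 347 with RLE factors and 404 and 319 with column totals. Of the 488 members higher in kidney on the TS, 264 also had the higher ratio there and 60 the lower, and of the 326 higher in liver 278 had the higher ratio in liver. These measures share the TS reads. Pooled, the kidney NTS density of long genes was 1.25-fold that of liver, with ranges of 0.0439 to 0.0573 and 0.0357 to 0.0433 RPKM that did not overlap, against 1.09-fold in the other rows. The pooled TS density went the other way, at 0.217 RPKM in kidney and 0.232 in liver. Its mean was higher in kidney at 0 of 6 times, though the ranges overlapped.

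The kidney side was led by genes with little TS repair in liver. Arhgef28, a RhoA exchange factor (chr13:97898595-98206165), had TS densities of 0.822 to 0.909 RPKM in kidney (median 0.861) and 0.0223 to 0.0575 in liver (median 0.0252), a log2 difference of 4.79 ± 0.12 (adjusted p = 6.58e-17, edgeR). Galnt14, a glycosyltransferase, differed by 4.47 ± 0.10. Cubn, cubilin, the endocytic receptor of the proximal tubule (chr2:13276338-13491876), lay at 0.405 to 0.592 RPKM in kidney (median 0.509) and 0.0180 to 0.0418 in liver (median 0.0221). No library of one tissue reached the range of the other for these genes, and the difference for Cubn was 4.36 ± 0.09. On the NTS its ranges overlapped (0.0648 to 0.0921 and 0.0415 to 0.0796 RPKM) and the difference did not pass the test (adjusted p = 0.328, edgeR). Its liver TS/NTS ratio was below 0 on the log2 scale, at -1.41 ± 0.09. Trabd2b (4.34), the netrin receptor Unc5c (4.17), the guidance cue Slit2 (4.05), Mecom#2 (4.02) and Glis1 (3.75) followed.

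The liver side was led by Gfra1, a GDNF co-receptor that overlaps a row of the opposite strand (chr19:58235581-58455398), at 1.21 to 1.90 RPKM in liver (median 1.66) and 0.0502 to 0.138 in kidney (median 0.0667), a difference of -4.54 ± 0.14 (adjusted p = 1.66e-15, edgeR). Camk1d, a calcium-dependent kinase, lay at 0.758 to 1.26 RPKM in liver and 0.0656 to 0.115 in kidney (-3.64 ± 0.08). Fam19a2 (-3.80), the GABA-B receptor subunit Gabbr2 (-3.62), Chsy3, Pid1, Bmper and Neb (-3.18) were the others. The ranges of Gfra1, Camk1d, Gabbr2 and Neb did not overlap between tissues. Neb, nebulin, had the NTS above the TS in 12 of 12 kidney libraries, and overlaps a row of the opposite strand.

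Of all rows, 42.2% were higher in kidney and 31.7% in liver. Podocyte genes were higher in kidney in 7 of 8 (median log2 1.48) and kidney epithelial genes in 18 of 23 (1.41), while hepatocyte genes were higher in liver in 15 of 17 (-0.67) and housekeeping giants in 31 of 38 (-0.40). Dach1 (3.57) and Magi2 (2.63) lay higher in kidney, and Plce1, on the same podocyte list, lower at -2.26 ± 0.06. The tubular anchor Ank3 differed by 1.41 and the growth hormone receptor Ghr by -0.74. Synaptic genes were higher in kidney in 51 and in liver in 10 of 73 (0.43), with Tenm3 at -3.12. Fragile site genes divided 15 and 8 of 25 (0.24), transcription regulators 10 and 22 of 32 (-0.31), signalling genes 21 and 20 of 44 (0.03), endothelial and mesenchymal genes 13 and 8 of 23 (0.31) and immune genes 5 and 6 of 13 (-0.24). Over all rows the median was 0.07.

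The wave itself differed between tissues in 12 of 963 members by the interaction test (1.25%, against 1.07% of all rows): Zbtb7c, Arhgap24, Caln1, Kcnt2, Dnah8, Pappa, Bmper, Adamtsl1, 2610307P16Rik, Zcchc16, Ttll11 and Mir5098#3. With the replicate block 31 were called, with no share of all rows worked out. Without kidney ZT0 replicate 1 there were 23, without kidney ZT8 replicate 2 7, and without liver ZT0 replicates 1 and 2 29 and 19. For Pappa the kidney means ran from 0.219 RPKM at ZT8 to 0.335 at ZT16, a called wave of 0.37 that peaked at 18.5 h. Its liver values of 0.0164 to 0.0352 RPKM gave a wave of 0.30 with a peak at 3.1 h that did not pass the test on its own (adjusted p = 0.137, edgeR). For Zbtb7c, Arhgap24, Caln1, Kcnt2 and Dnah8 the called wave lay in liver. A wave called in 1 tissue alone, as for Acaca (interaction adjusted p = 0.0727) or Srgap3 (0.092), was not shown to differ.

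**Figure D5:**
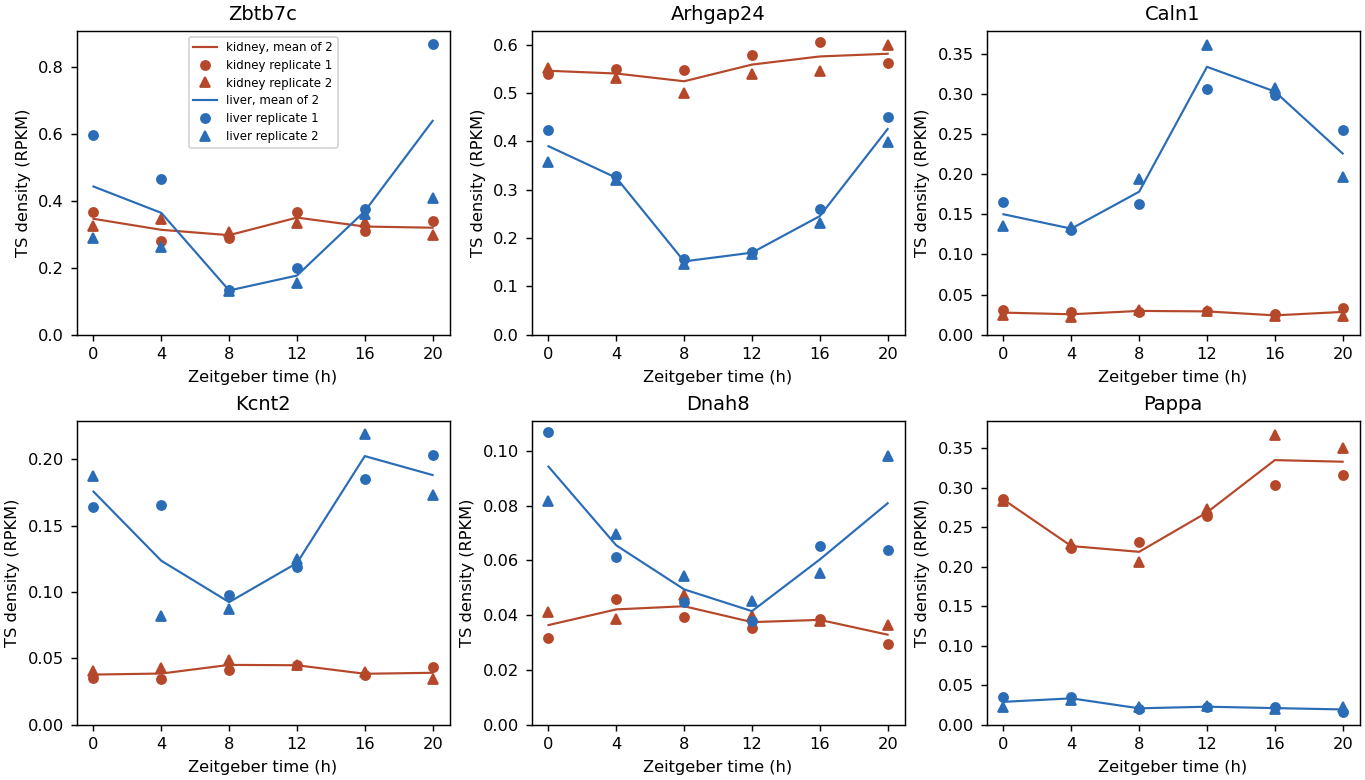
TS density in RPKM against Zeitgeber time in h for the 6 members with the largest called difference in wave between tissues; points are libraries (circles replicate 1, triangles replicate 2) and lines the means of 2, red for kidney and blue for liver. Zbtb7c, Arhgap24, Caln1, Kcnt2 and Dnah8 have a called wave in liver and Pappa in kidney, where Pappa is at a higher level; Caln1 peaks at ZT12 to ZT16 in liver.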

How the data were processed

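XR-seq reads of 24 libraries were counted by the authors per gene and strand; the deposited tables give whole read counts and RPKM for the transcribed and non-transcribed strand of 25239 rows. RPKM, per the deposited values, is reads per kb of row scaled to a library total, which was recovered from reads, RPKM and length. The build was mm10, per the submitters' processing notes, and for the aligner and counter the sources used here give no name. The labels' protocols name antibodies to other adducts beside the series' cisplatin design, so the adduct antibody is not settled by them.

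Counts were tested with edgeR 4.0.16 (quasi-likelihood, TMM factors, filterByExpr, Benjamini-Hochberg over all named rows tested, threshold 0.05) in R 4.3.3, in 12 comparisons. TS and NTS were tested apart for a 24 h cosine in each tissue and for the tissue difference with time in the model. Strand ratios were fitted on TS and NTS counts with the library as a block, 1 library size for both strands and no TMM factor, which would scale the strands apart. A wave is given as a log2 amplitude, so its fold from trough to peak is 2 to the power of 2 amplitudes. Pooled shares and ratios are given as mean, SD, range and cosine amplitude with no test. Scripts were tested on simulated data: at an amplitude of 0.5, 98 of 100 simulated kidney TS waves were recovered, 79 of 100 in liver and 69 of 100 wave differences between tissues, and at 0.25 it was 53, 39 and 15 of 100. The simulated counts had no replicate pairing, and changes were set in well-covered rows only. These rates therefore need not hold for the libraries at hand. DESeq2 1.42.0, other scalings, filters, rows and left-out libraries were alternatives.

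Replicate numbers paired the kidney libraries: same-numbered libraries deviated together in 15 of 15 pairs of times (correlation 0.14 to 0.54 on the TS and 0.24 to 0.43 on the NTS).

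Members and gene lists were chosen with earlier results of these data known. Named members are, per tissue, the 8 highest and 8 lowest strand ratios, the 10 largest TS waves, up to 5 NTS and ratio waves, and the 3 with most TS reads; the 8 largest tissue differences each way; up to 6 wave differences; the 3 longest; 3 rows on each side of the threshold; and the 3 densest of each of 10 lists. Ratio ranks needed a mean of 20 NTS reads and no opposite-strand overlap, and other ranks a call and 20 reads. Members with peaks of 4 to 12 h, those called on both strands and all 12 wave differences were named after their values were seen. One member that the rule names is not reported here.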

Additional observations from a re-analysis of the deposited data

Results flagged for a closer look

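The TS wave of 6 long genes differed between kidney and liver by the interaction term of the fit over both tissues (edgeR, 12 libraries a tissue). The size of the difference is the log2 amplitude of the wave that separates the tissues. It was 1.01 for Zbtb7c (adjusted p = 0.0198), 0.76 for Arhgap24 (2.05e-05), 0.70 for Caln1 (0.00287), 0.67 for Kcnt2 (0.0169), 0.66 for Dnah8 (0.00543) and 0.60 for Pappa (0.0065).

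The call of Zbtb7c was lost without kidney ZT20 replicate 2 or without any of liver ZT8 replicate 1, ZT8 replicate 2 and ZT20 replicate 1 (adjusted p up to 0.0639). The call of Kcnt2 was lost without kidney ZT8 replicate 2 or ZT20 replicate 2 (up to 0.0642) and after removal of the length trend (0.0528). In liver Kcnt2 also had an NTS wave (0.32, adjusted p = 0.0182) and so did Dnah8 (0.46, adjusted p = 0.000183), with peaks at 20.7 and 21.5 h.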

How the results depend on the processing

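Under the other settings, single members named in the text kept direction and side of the threshold in 5189 of their values, lost the call in 193, gained it in 88 and reversed in 37. The kidney TS wave count was 392 with the replicate block and 147 over rows that overlap none (fewer rows), and the liver count 118 over such rows and 79 after removal of the length trend. Kidney NTS waves numbered 28 with DESeq2, 24 with no filter, 45 with the replicate block, 4 over rows without overlap and 6 without the length trend, and liver NTS waves 46, 58, 36 with the block and 9 over rows without overlap. Kidney ratio waves numbered 43 with RLE, 43 with column totals, 71 with DESeq2, 40 with no filter and 369 with the replicate block, and liver ratio waves 190 with the block and 44 over rows without overlap. Wave differences between tissues numbered 38 with DESeq2, 31 with the replicate block, 5 over rows without overlap and 28 without the length trend. Liver numbers paired the libraries less clearly: only 8 of 15 pairs of times had correlations over 0.1 on the TS. In the pooled log2 TS/NTS of long genes, though, liver replicate 1 lay above replicate 2 at each time (means of 2.62 and 2.45). With the block the SE of that liver wave was 0.026 instead of 0.046. The liver block counts are given as a description. The causes of these moves were not tested. For these settings the share of all rows called was not worked out, so the counts are not set against other genes.

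Over rows without overlap, strand calls were 517 in kidney (493 higher, 24 lower) and 489 in liver (451 and 38). The tissue calls were 499 on the TS (306 and 193), 415 on the NTS (240 and 175) and 407 for the ratio (173 and 234), all with fewer rows. Scaled apart, the strands gave 337 higher and 575 lower with RLE and 288 and 618 with column totals in kidney, and 327, 604, 291 and 642 in liver. The tissue NTS calls with column totals held 190 lower in kidney.

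The pooled kidney log2 TS/NTS of 2.12 was 1.74 at 300 kb or more, 1.37 at 500 kb or more, 2.46 without overlapping rows, 1.69 as a median over rows, 2.48 in the authors' downsampled tables and 2.37 without the 40 mismatched rows. The liver value of 2.53 was 2.10, 1.71, 2.88, 1.42 and, without the mismatched rows, 2.84. Long minus other rows was -0.95, -1.28, -1.01 as a median and -0.32 without the mismatched rows in kidney, and -0.76, -1.13, -1.46 and -0.010 in liver. The kidney TS share was 9.57% without overlapping rows and 10.9% in the downsampled tables, and the liver TS share 9.88% without overlapping rows and 11.9% without the 10 members with most reads. The kidney NTS share was 12.8% without overlapping rows, 16.7% with unnamed rows among the others, 15.8% without the 10 members, 14.5% downsampled and 14.3% without mismatched rows. The liver NTS share was 11.6%, 14.2% without the 10 members and 12.4% without mismatched rows. Leaving out the mismatched rows was chosen after seeing the data.

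Single libraries left out gave 91 to 378 kidney and 131 to 300 liver TS waves, 1 to 26 and 13 to 47 NTS waves, 0 to 332 and 38 to 120 ratio waves, and 7 to 29 wave differences. Strand calls ran from 838 to 845 in kidney (787 to 795 higher, 49 to 54 lower) and 796 to 810 in liver (726 to 737, 68 to 73). Tissue calls ran from 800 to 839 on the TS (470 to 506 and 318 to 353), 654 to 706 on the NTS (374 to 416 and 267 to 320) and 659 to 682 for the ratio (276 to 292 and 377 to 399). Shares ran from 12.1 to 12.4% (kidney TS), 12.6 to 12.8% (liver TS), 17.2% (kidney NTS) and 15.2 to 15.4% (liver NTS). Pooled log2 ratios ran from 2.09 to 2.15 and 2.50 to 2.56, and long minus other rows from -0.59 to -0.56 and -0.33 to -0.31.

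Strand ratios that reversed when the strands were scaled apart do so by construction. In kidney these were, with RLE and column totals, Tns1 (-0.053, -0.27), Ptprd (-0.14, -0.35), Dmd (-1.06, -1.27), Cntnap2 (-2.32, -2.54), Tenm3 (-0.59, -0.81), Sorcs2 (-1.87, -2.09), Runx1 (-0.96, -1.17), Plce1 (-0.61, -0.83) and, with column totals, Magi2 (-0.14). In liver they were Dmd (-0.66, -0.96), Cntnap2 (-2.46, -2.77), Sorcs2 (-1.11, -1.42), Unc5c (-2.24, -2.55), Ank3 (-0.14, -0.45), Dock8 (-0.28, -0.58), Runx1 (-0.37, -0.68), Dach1 (-0.92, -1.23) and Magi2 (-1.80, -2.11). Trio, 0.15 higher on the TS in kidney, was at -0.0052 after removal of the length trend. The liver TS wave of Itga9, 0.11, ran from 0.10 to 0.21 with single libraries left out; the 0.21, without liver ZT0 replicate 1, peaked over 6 h away (adjusted p = 0.0256, edgeR).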
